A study of Homo sapiens with 8 samples.

Results

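The 7 genes described here, MDM2, MDM4, PPM1D, CCNG1, CCNG2, RCHY1 and COP1, were grouped as negative feedback regulators of p53. They were chosen by name from 20296 genes that could be matched to a probe. They were measured by 17 of the 42391 probes, and for each gene the brightest probe, by its mean over all arrays, is reported, with the others beside it. The cells were of the line MCF10A, which comes from human breast epithelium and does not form tumours, with p53 present (p53+/+) or without it (p53-/-). RNA was taken from untreated cells (0 h) and at 12, 24 and 48 h after doxorubicin (ADR, adriamycin), a topoisomerase poison that breaks DNA. The labels give 0.5 µg/ml for 2 h, and the methods of the study give a higher dose for the same time. Each genotype was measured once at each time, on 8 arrays in all, so no value has a replicate error. By the scanner headers all arrays were on 1 slide, with the p53-/- arrays together in 1 column of it. Genotype and place on the slide can therefore not be told apart. How p53 was removed, and whether the p53-/- cells are a single clone, is not given in the sources used here.

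p53 is a transcription factor that is stabilised after DNA damage, and several of the genes it switches on act to bring it down again. MDM2 is a ubiquitin ligase that binds p53, blocks its activation domain and marks it for degradation, and MDM4 is its relative, which binds p53 and pairs with MDM2. PPM1D, also called WIP1, is a phosphatase that removes damage-induced phosphates from p53 and from the kinases that act on it. Cyclin G1 (CCNG1) recruits the phosphatase PP2A to MDM2, and cyclin G2 (CCNG2) is its close relative. RCHY1 (Pirh2) and COP1 are further ubiquitin ligases that target p53.

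Levels are log2 of the background-corrected signal relative to the 75th percentile of the same array, and a difference of 1 is 2-fold. They allow a gene to be compared between arrays, not one gene with another. The 75th percentile was 659 to 1010 on the p53+/+ arrays and 866 to 1193 on the p53-/- arrays. The technical SD given for a level or a change was estimated from 999 probes printed in 10 spots. It covers spots of one array and not cultures, labellings or arrays. The Pearson r of the array labelled p53+/+ 0 h over the 28947 probes tested was 0.955 to 0.984 with the p53-/- arrays and 0.913 to 0.938 with the treated p53+/+ arrays, a description over points that share 1 array, in which genotype and treatment cannot be told apart. CDKN1A, the p53 target encoding the CDK inhibitor p21, was at -1.13 on that array, at 2.55, 2.63 and 2.70 on treated p53+/+ arrays, and at -2.95, -0.94, -0.63 and -0.47 on the p53-/- arrays from 0 to 48 h. On the untreated arrays CDKN1A was thus 1.82 higher in p53+/+ cells. PPM1D was 0.45 higher there, but MDM2 and CCNG1 differed by -0.35 and -0.47. For 66 probes the treated p53+/+ arrays lay at least 2 away from all p53-/- arrays, with little spread within each group. On the array labelled p53+/+ 0 h, 2 of these lay nearer the treated p53+/+ level, and here too genotype and treatment cannot be told apart. Whether that label is right was not settled. Each p53+/+ change printed below is also given from the p53-/- 0 h array.

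All 8 epithelial markers fixed for this line, such as KRT5 and CDH1, were well above background on every array. After treatment they differed between genotypes, with 7 of 8 called higher in treated p53+/+ cells. The log2 of their summed level was 8.66 to 9.17 on the treated p53+/+ arrays and 7.34 to 7.79 on the treated p53-/- arrays. Before treatment it was closer, at 7.94 on the array labelled p53+/+ 0 h and 7.49 on the p53-/- 0 h array. Of 7 genes not expected in this line, PECAM1 and COL1A1 were well above background on 0 of the 3 treated p53+/+ arrays. On all 3 treated p53-/- arrays they were well above it, at least 6.61-fold and at least 2.86-fold higher. In these folds the lowest signal well above background stands in for the dim arrays. The limma fit to the signals as measured gave adjusted p = 0.00220 and 0.00224. Both genes were also well above background on both untreated arrays. There PECAM1 was at -2.39 in p53+/+ and -2.02 in p53-/- cells, and COL1A1 at -3.20 and -2.28. Signal from the list was not confined to p53-/- cells. PTPRC and CDKN2A passed the same mark on 8 of 8 arrays, ESR1 on 7 and CD3E on 1, and PGR was not tested. On each of the 0 h arrays 5 of the 7 genes passed it. The log2 summed level of the 7 was -1.10 to -0.73 on treated p53+/+ arrays and -0.52 to -0.19 on treated p53-/- arrays. Their part in the differences below was not tested.

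The sequences before the transcript starts of the 4 members called between treated genotypes are shown because p53 acts on its targets through DNA near their starts. They are the 250 bases before a RefSeq start in GRCh38.p14, 5′ to 3′ along the gene's own strand, which is + for all 4 genes. The MDM2 starts fall in 2 groups, and a window of each is given. Capitals in MDM2 mark a match to the p53 response element (a pair of 10-base units up to 13 bases apart, at most 2 mismatches in all, with the central C and G of each unit kept; the element reads alike on both strands). Capitals in PPM1D mark the cyclic AMP response element TGACGTCA, which also reads alike on both strands.
MDM2, first start, chr12:68807922-68808171: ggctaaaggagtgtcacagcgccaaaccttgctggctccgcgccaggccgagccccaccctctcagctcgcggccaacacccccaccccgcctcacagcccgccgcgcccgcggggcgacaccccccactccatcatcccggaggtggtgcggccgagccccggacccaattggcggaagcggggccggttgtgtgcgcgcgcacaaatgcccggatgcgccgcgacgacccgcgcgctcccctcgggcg
MDM2, downstream start, chr12:68808767-68809016: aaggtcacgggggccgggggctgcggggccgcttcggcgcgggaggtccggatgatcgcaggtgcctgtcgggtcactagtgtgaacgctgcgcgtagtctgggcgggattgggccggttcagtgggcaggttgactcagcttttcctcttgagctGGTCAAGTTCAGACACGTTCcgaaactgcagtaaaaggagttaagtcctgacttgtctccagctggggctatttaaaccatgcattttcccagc
MDM4, chr1:204516156-204516405: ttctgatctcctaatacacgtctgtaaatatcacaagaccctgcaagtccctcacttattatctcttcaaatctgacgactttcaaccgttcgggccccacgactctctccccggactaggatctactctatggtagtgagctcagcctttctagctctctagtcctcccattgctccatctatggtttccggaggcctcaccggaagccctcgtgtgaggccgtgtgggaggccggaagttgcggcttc
PPM1D, chr17:60599943-60600192: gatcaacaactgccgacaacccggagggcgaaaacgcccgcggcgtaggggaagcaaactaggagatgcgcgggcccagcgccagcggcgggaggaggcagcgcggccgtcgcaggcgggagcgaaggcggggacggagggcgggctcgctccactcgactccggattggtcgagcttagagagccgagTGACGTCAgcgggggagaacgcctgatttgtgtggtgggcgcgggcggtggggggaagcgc
CCNG1, chr5:163437321-163437570: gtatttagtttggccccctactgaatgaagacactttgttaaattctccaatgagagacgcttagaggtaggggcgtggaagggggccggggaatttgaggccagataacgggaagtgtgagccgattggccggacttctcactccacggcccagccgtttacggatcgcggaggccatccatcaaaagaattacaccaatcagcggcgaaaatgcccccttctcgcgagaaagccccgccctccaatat

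The p53 element was found in 2 of the 14 windows of the members, both of them overlapping windows of the downstream MDM2 start, which lies 845 bases after the first. It spans bases 94 to 75 before that start, with no spacer and 2 mismatches. The same search matched 2.49% of the 35116 windows of all genes, and the cyclic AMP element, found in 1 window of the members, 1.65%. No window of the members held both. A match is a run of letters, and no match says only that these letters are not in these windows.

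After doxorubicin, 4 of the 7 genes were higher in p53+/+ than in p53-/- cells by limma over the 6 treated arrays. MDM2 differed by 3.15 on the log2 scale, or 8.87-fold, PPM1D by 1.72 (3.29-fold), CCNG1 by 1.23 (2.34-fold) and MDM4 by 0.95 (1.93-fold). CCNG2, RCHY1 and COP1 did not pass the adjusted p of 0.05. Over all 28947 probes, 17.9% were called in either direction and 10.4% were called higher in p53+/+ cells. This fit treats the 3 times of a genotype as replicates, and its p-values set the difference between genotypes against the movement over time, not against separate cultures. Without scaling between arrays only MDM2 and PPM1D were called, and the median over all probes moved from 0.08 to -0.51. MDM4 then differed by 0.36 and CCNG1 by 0.64, still above that median.

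**Figure D1:**
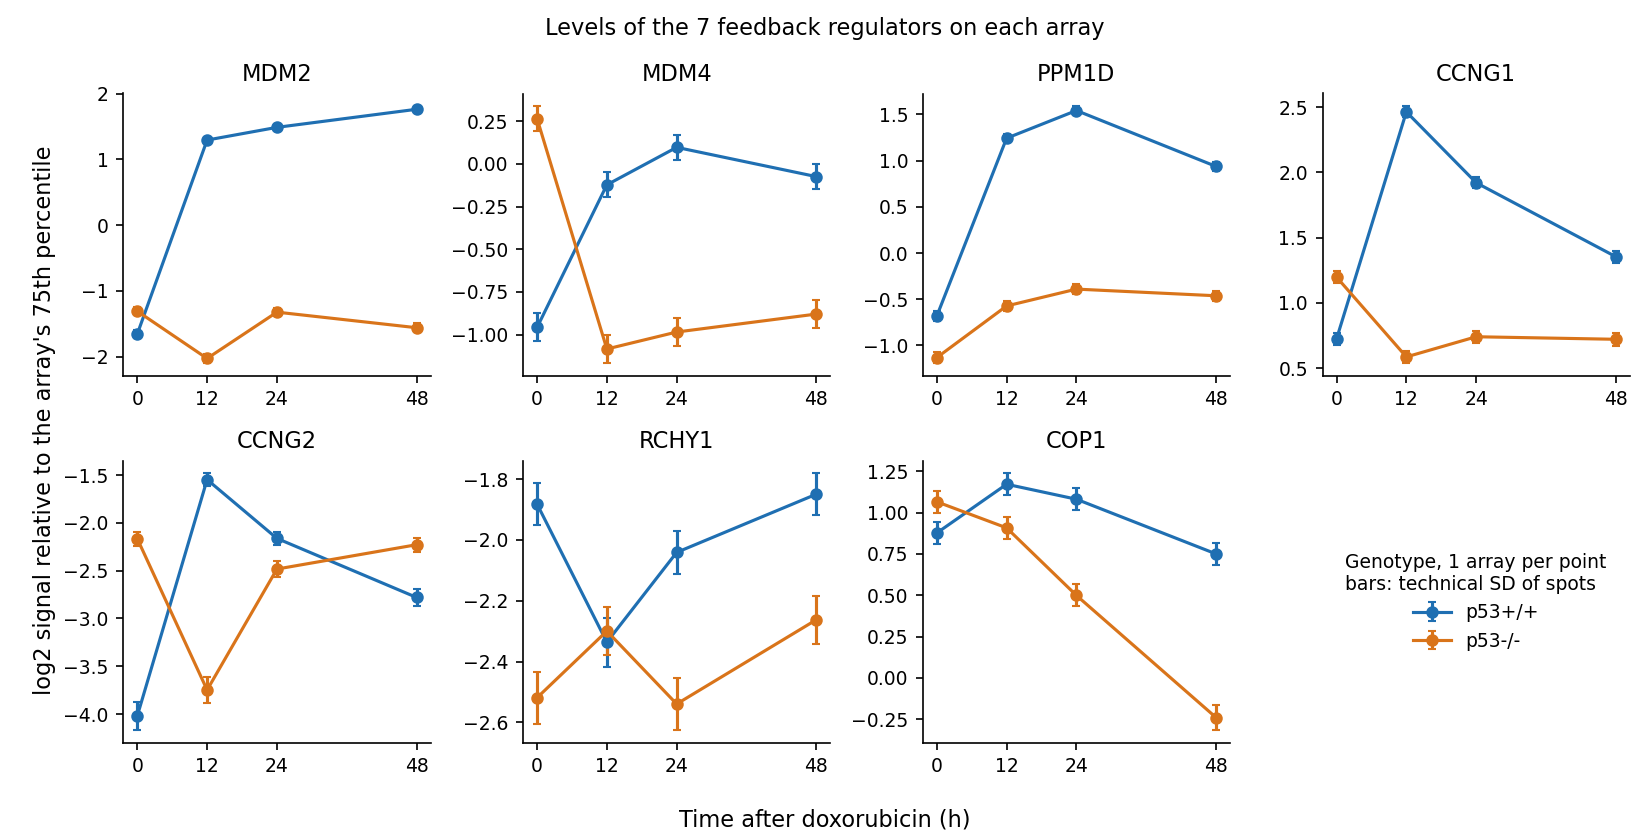
Log2 level relative to the array's 75th percentile (vertical axis, own scale in each panel) against hours after doxorubicin (horizontal axis) for the reported probe of each gene, 1 array per point, with bars of 1 technical SD. MDM2, PPM1D, CCNG1 and MDM4 lie higher in p53+/+ cells at every treated time, and CCNG2 crosses between 24 and 48 h.

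MDM2 was at -1.65 on the array labelled p53+/+ 0 h and at 1.29, 1.49 and 1.76 at 12, 24 and 48 h after treatment. The p53-/- arrays read -1.31, -2.03, -1.32 and -1.56 from 0 to 48 h. The 3 treated p53+/+ arrays lay above all other arrays, by at least 2.61 over the treated p53-/- arrays, and their order followed time. The log2 changes from the p53+/+ 0 h array were 2.95, 3.14 and 3.41, the first of them 7.71-fold. Measured from the p53-/- 0 h array they were 2.60, 2.79 and 3.07. In p53-/- cells MDM2 was 1.64-fold lower at 12 h than at 0 h, and its log2 change was -0.01 and -0.25 at 24 and 48 h. The difference between treated genotypes was 3.15 (SE 0.25, 95% interval 2.55 to 3.74, adjusted p = 0.000913 from limma). All 4 MDM2 probes were called, with log2 differences of 2.56 to 3.65, and the reported probe was called under all 13 alternatives, with adjusted p of 6.17e-05 to 0.0426 from limma.

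MDM4 followed a different course. It was at -0.96 on the array labelled p53+/+ 0 h and at -0.12, 0.10 and -0.07 after treatment, whereas p53-/- cells had 0.27 at 0 h and -1.08, -0.99 and -0.88 after treatment. The highest MDM4 level of all 8 arrays was thus the untreated p53-/- array, and the treated p53+/+ arrays did not overlap the treated p53-/- arrays. In p53-/- cells MDM4 was 2.55-, 2.38- and 2.21-fold lower at 12, 24 and 48 h than at 0 h. In p53+/+ cells, by contrast, MDM4 was 1.79-, 2.08- and 1.85-fold higher than on its own 0 h array, but measured from the p53-/- 0 h array the log2 change was -0.39, -0.17 and -0.34. The 2 untreated arrays differed by 1.23 (technical SD 0.11), the p53-/- array being higher. The difference between treated genotypes was 0.95 (SE 0.17, 95% interval 0.53 to 1.37, adjusted p = 0.0147 from limma). The other 3 probes of MDM4 gave 0.57 to 0.72, with adjusted p of 0.0689 to 0.177 from limma, and at 48 h they differed by -0.03 to 0.20 between genotypes while the reported probe differed by 0.81. The mean of all 4 probes was not called (0.73). The call was also lost without any 1 of the 3 treated times.

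PPM1D was at -0.68 on the array labelled p53+/+ 0 h and at 1.24, 1.54 and 0.94 at 12, 24 and 48 h. The p53-/- arrays read -1.13, -0.57, -0.39 and -0.46. Treated p53+/+ arrays lay above all others, and the level was highest at 24 h in both genotypes. It was the one gene of the 7 that was higher after treatment than at 0 h at all 3 times in both genotypes: 3.80-, 4.67- and 3.07-fold in p53+/+ cells and 1.47-, 1.67- and 1.59-fold in p53-/- cells, the latter below 2-fold at each time. The log2 changes in p53-/- cells, 0.56, 0.74 and 0.67, had a technical SD of 0.08. Without scaling they were 0.91, 1.13 and 1.13, above 2-fold at 24 and 48 h. Measured from the p53-/- 0 h array, the p53+/+ log2 changes were 2.37, 2.67 and 2.07. The treated genotypes differed by 1.72 (SE 0.21, 95% interval 1.21 to 2.23, adjusted p = 0.00407 from limma), and the second PPM1D probe gave 1.52 (adjusted p = 0.00441 from limma). PPM1D was called under 12 of 13 alternatives and was not called without the arrays of 24 h (1.61, adjusted p = 0.0925 from limma).

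CCNG1 was at 0.73 on the array labelled p53+/+ 0 h, reached 2.46 at 12 h and was at 1.92 and 1.35 at 24 and 48 h. Of the p53-/- arrays the untreated one was highest, at 1.20, and the treated ones read 0.59, 0.74 and 0.72. All treated p53+/+ arrays were above all p53-/- arrays, but the gap narrowed with time, from 1.88 at 12 h to 1.18 at 24 h and 0.63 at 48 h. The second CCNG1 probe did not narrow in this way, with 1.70, 1.33 and 1.48 at the same times. The changes in p53+/+ cells were 3.34-, 2.29- and 1.55-fold, and the log2 changes were 1.27, 0.72 and 0.16 from the p53-/- 0 h array. The treated genotypes differed by 1.23 (SE 0.30, 95% interval 0.52 to 1.94, adjusted p = 0.0346 from limma), and by 2.84-fold on the second probe (adjusted p = 0.00339 from limma). The reported probe was not called without the arrays of 12 h, without those of 24 h or with time as a block.

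CCNG2 had the widest range of the 7 genes over the treated arrays of each genotype. It was at -4.02 on the array labelled p53+/+ 0 h and at -1.55, -2.16 and -2.78 after treatment, and p53-/- cells had -2.17, -3.75, -2.48 and -2.23. The p53+/+ level was highest at 12 h, the time at which the p53-/- level was lowest, so that the genotypes differed by 2.20 at 12 h, 0.32 at 24 h and -0.55 at 48 h. The 3 probes shared this order of the times, with 2.19 to 2.27 at 12 h and -0.65 to 0.27 at 48 h. 1 of them was well above background on 6 of the 8 arrays, and it read lowest at p53+/+ 0 h (-5.95) and p53-/- 12 h (-5.23). Over the 3 times the difference was 0.66 (SE 0.48, 95% interval -0.50 to 1.81, adjusted p = 0.389 from limma), which leaves a difference of either sign possible, and without the arrays of 12 h it was -0.12. The changes in p53+/+ cells were 5.54-, 3.62- and 2.36-fold from the p53+/+ 0 h array. From the p53-/- 0 h array, which was 1.85 higher (technical SD 0.16), the log2 changes were 0.62, 0.00 and -0.61. The p53+/+ 0 h level, -4.02, was near the low end of signals well above background on that array, of which 5% lay below -4.55. With normexp background the log2 changes from that array were 1.79, 1.29 and 0.94, against 2.47, 1.86 and 1.24 with the processed signal. In p53-/- cells the change was -1.58 at 12 h, -0.32 at 24 h and -0.06 (technical SD 0.10) at 48 h, where the other probes gave 0.38 and -0.57.

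**Figure D2:**
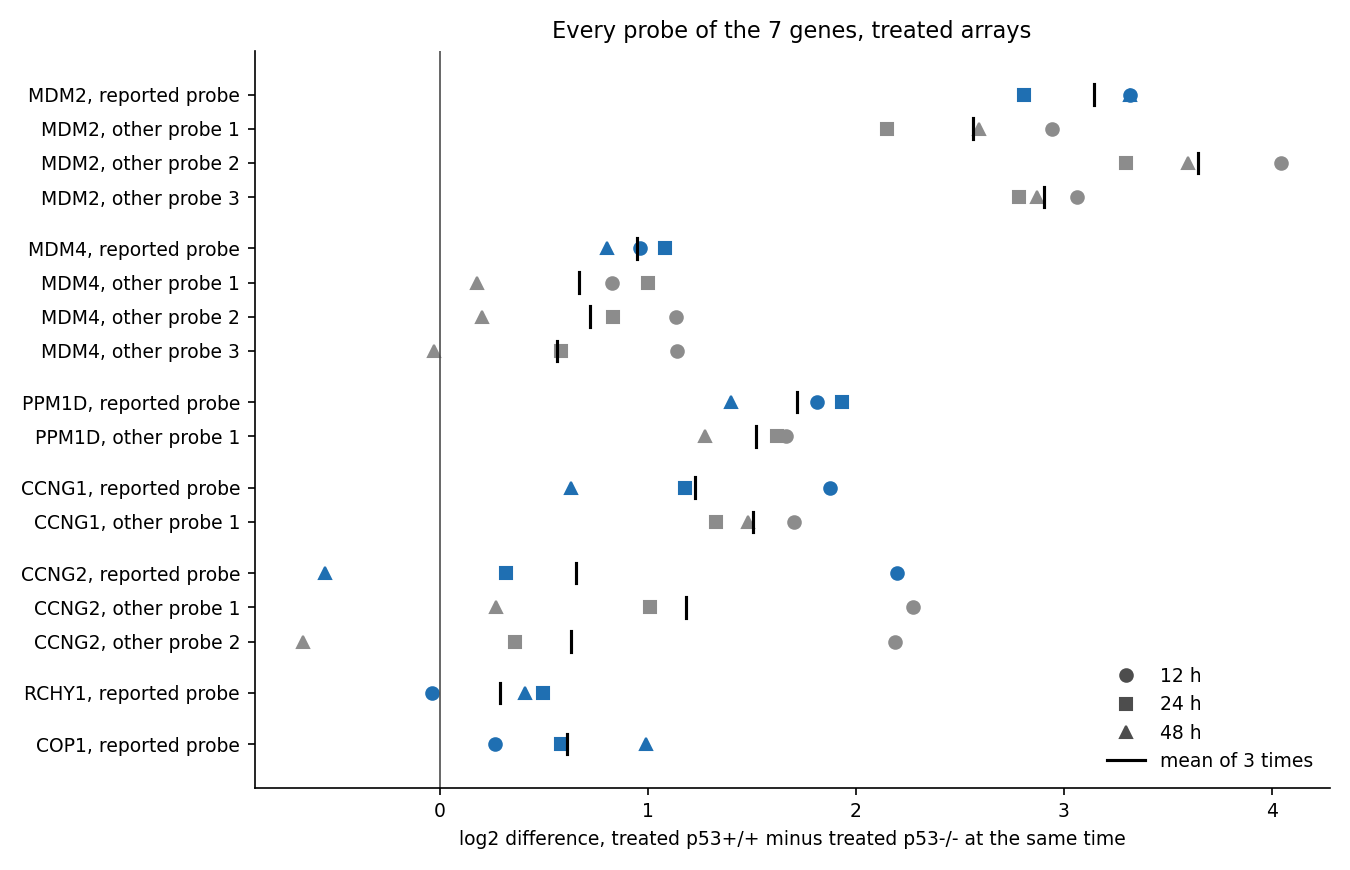
Log2 difference between treated p53+/+ and treated p53-/- cells at the same time (horizontal axis) for every probe of the 7 genes (rows), with 12, 24 and 48 h as circles, squares and triangles and the mean as a bar, and the reported probe in blue. All MDM2 probes lie above 2 at every time, and all CCNG2 probes move left from 12 to 48 h.

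RCHY1, measured by 1 probe, varied least over the arrays. It was at -1.88, -2.34, -2.04 and -1.85 from 0 to 48 h in p53+/+ cells and at -2.52, -2.30, -2.54 and -2.26 in p53-/- cells. The treated ranges of the genotypes overlapped, since the p53+/+ level at 12 h was below 2 of the 3 treated p53-/- levels. The genotypes differed by 0.64 (technical SD 0.11) on the untreated arrays and by -0.04, 0.50 and 0.41 at the treated times. Over the treated arrays the difference was 0.29 (SE 0.21, 95% interval -0.20 to 0.78, adjusted p = 0.366 from limma), and it was -0.30 without scaling.

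COP1, also measured by 1 probe, stayed between 0.75 and 1.17 on the 4 p53+/+ arrays. The p53-/- arrays read 1.07, 0.91, 0.50 and -0.24 from 0 to 48 h. With this scaling they were lower at each later time and 2.47-fold lower at 48 h than at 0 h. The lowest COP1 level of the 8 arrays was that of p53-/- cells at 48 h, and the genotypes differed by 0.26, 0.58 and 0.99 at 12, 24 and 48 h. The treated ranges overlapped, and the difference over the 3 times was 0.61 (SE 0.32, 95% interval -0.16 to 1.38, adjusted p = 0.232 from limma). Without scaling that difference was 0.02, and the p53-/- log2 change at 12 h was 0.20 where it was -0.16 with scaling.

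By size alone, with no test, genes were counted that moved 2-fold or more, always in one direction, from the 0 h array of the same genotype at every treated time. MDM2, PPM1D and CCNG2 rose by this rule in p53+/+ cells, 3 of 7, where 7.92% of all probes did. Measured from the p53-/- 0 h array, CCNG2 no longer did so. No member fell in p53+/+ cells, where 5.79% of probes did, and none rose in p53-/- cells, where 2.59% did. MDM4 fell in p53-/- cells, where 1.89% of probes did. MDM2 and PPM1D were at least 2-fold higher in treated p53+/+ than in treated p53-/- cells at all 3 times, against 5.64% of probes. MDM2, MDM4, PPM1D and CCNG1 had every treated p53+/+ array above every treated p53-/- array, 4 of 7, against 24.7% of probes.

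**Figure D3:**
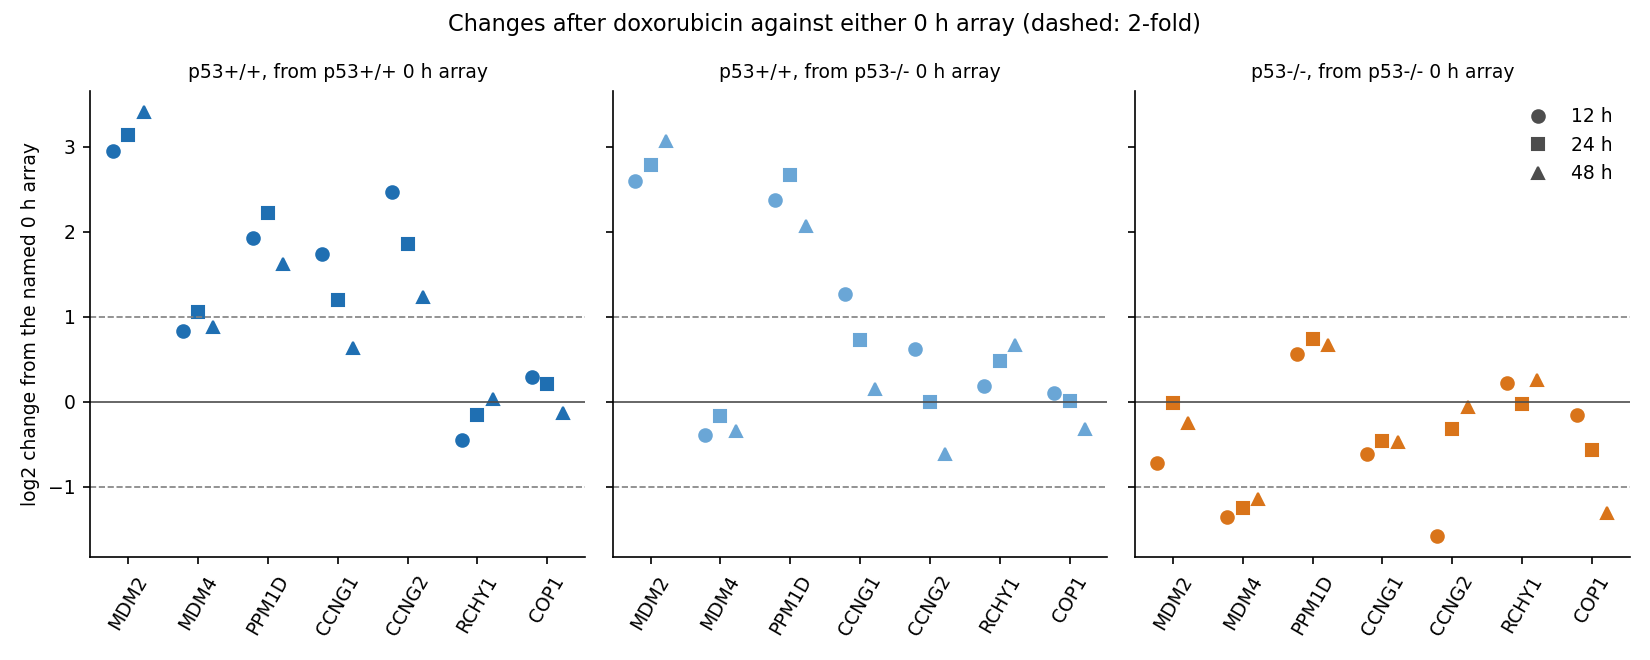
Log2 change (vertical axis) of the 7 genes at 12, 24 and 48 h in p53+/+ cells from the array labelled p53+/+ 0 h (left) and from the p53-/- 0 h array (middle), and in p53-/- cells from their own 0 h array (right), with dashed lines at 2-fold. MDM2 and PPM1D stay above 2-fold in both p53+/+ panels, and MDM4 changes sign between them.

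The interaction of genotype and treatment, fitted over all 8 arrays, asked whether the response to doxorubicin differed between genotypes. It was called for MDM2 and MDM4, 2 of 7, where 0.998% of all probes were called with a more positive change in p53+/+ cells. It rests on the array labelled p53+/+ 0 h, and no interaction can be fitted without it. For MDM2 it was 3.49 (SE 0.50, adjusted p = 0.0304 from limma), positive at 3 of 3 times. For MDM4 it was 2.18 (SE 0.35, adjusted p = 0.0397 from limma), also positive at 3 of 3 times, and the other 3 MDM4 probes gave 1.35 to 1.82 and were not called. Both calls were lost with time as a block and without the arrays of any 1 time, and that of MDM4 also with median scaling, without scaling, with the mean of its probes and without the p53+/+ 48 h array. The interaction was 2.51 for CCNG2 (SE 0.97), 1.70 for CCNG1 (SE 0.60), 1.27 for PPM1D (SE 0.43), 0.80 for COP1 (SE 0.64) and -0.35 for RCHY1 (SE 0.41), with adjusted p of 0.201 to 0.719 from limma. The second CCNG1 probe was called at 2.03 (adjusted p = 0.0495 from limma).

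Among the members, the patterns of MDM2 and PPM1D over the 8 arrays were most alike (Pearson r = 0.936), followed by MDM2 and CCNG1 (0.839) and PPM1D and CCNG1 (0.814). CCNG2 and RCHY1 were least alike (-0.432). These correlations describe 8 arrays that share scaling and the 2 genotypes. Among 11828 genes well above background on all arrays, those most like MDM2 included DSG3 (r = 0.995), which encodes a desmosomal cadherin, and TSPAN31 (0.995). Those most like PPM1D were PGF (0.995), a growth factor of the VEGF family, RHOD (0.993) and BAIAP2L1 (0.990). For MDM4 they were SRPK2 (0.976), RXRA (0.972) and MCL1 (0.971), an anti-apoptotic BCL2 relative, and for CCNG1 INTU (0.988), TSPAN33 (0.983) and TMSB10 (0.970). For CCNG2 they included IPP (0.965) and PMS2P2 (0.948). For RCHY1 they were PDLIM4 (0.968), ZNFX1 (0.951) and MRS2 (0.945), and for COP1 AP3B1 (0.984), SLX1A (0.979) and DENND1B (0.978). PMS2P2 is a pseudogene with close copies.

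The wider pathway was described with 8 lists of genes that act on p53 or on these regulators, 85 tested genes in all, of which 16 were called higher and 10 lower in treated p53+/+ cells, with a median difference of 0.05 against 0.08 over all probes. The genes that stood highest were other p53-induced genes reported to act back on p53 or MDM2, where 6 of 8 were called higher and 1 lower, with a median difference of 2.63. This list was drawn up from genes known to be induced by p53, so its place above the other lists is no separate result. BTG2, an antiproliferative gene, differed by 5.25, TP53INP1, a p53 cofactor, by 4.62, SESN1, a sestrin, by 4.59, and PHLDA3, an inhibitor of AKT, by 3.06. SIVA1, at -1.43, was the 1 called lower. The kinases of p53, MDM2 or MDM4 and substrates of PPM1D went mostly the other way, with 5 of 12 called lower and 1 higher and a median of -0.62. The checkpoint kinases CHEK1 and CHEK2 differed by -1.63 and -1.46, and PRKDC, the DNA-dependent protein kinase, by -1.16. PLK3, a polo-like kinase, was higher by 3.12.

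Shares of the lists stand beside 10.4% of all probes called higher and 7.46% called lower, and several of the counts below are near or under these. Of 20 other p53 ubiquitin ligases and cofactors, 3 were called higher and 2 lower, with a median of -0.05. WWP1 was higher by 1.28 and CUL9, a cullin that holds p53 in the cytoplasm, by 1.19, while RFWD3 differed by -1.32 and RNF34 by -1.08. Of 9 further PPM1 phosphatases tested, 3 were called higher and 1 lower (median 0.25), with PPM1J at 2.16, PPM1F at 1.17, PPM1A at 0.76 and PPM1G at -1.04. Among 9 MDM2 inhibitors only RPS27L was called, at 2.41. CDKN2A, which encodes the MDM2 inhibitor ARF and is known as deleted in MCF10A, was well above background on all 8 arrays, and its difference was 0.34 (adjusted p = 0.297 from limma). The ribosomal proteins RPL5 and RPL11, which bind MDM2 under ribosomal stress, differed by 0.15 and 0.24 and were not called. Of 8 deubiquitinases tested 1 was called higher, USP4 at 1.11, and of 11 cyclin G partners 1, the kinase GAK at 1.10, while no PP2A subunit was called with this scaling. Of the COP1 complex only TRIB2 was called with this scaling. This pseudokinase was well above background on 0 of the 3 treated p53+/+ arrays. It was well above it on all 3 treated p53-/- arrays, where it was higher by at least 2.81 on the log2 scale. The limma fit to the signals as measured gave adjusted p = 0.00307. TRIB2 was also well above background on both untreated arrays, at -2.97 in p53+/+ and -2.62 in p53-/- cells. COP1's other partners DET1, DDB1, CUL4A, CUL4B and RBX1 differed by -0.49 to 0.26 and were not called.

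Without scaling, the called list genes kept their sign, and TRIM24, WWP1, CUL9, USP4, PPM1A, PPM1F, GAK and ZNF385A were no longer called. More genes were then called lower. They were 8 of the 20 ubiquitin ligases and cofactors, with none higher, and RNF34 and RFWD3, called lower with scaling too, were among the 8. The others were 4 of the 8 deubiquitinases, 5 of the 11 cyclin G partners and 5 of the 8 genes of the COP1 complex, TRIB2 included. The medians of the PPM1, MDM2 inhibitor and cyclin G partner lists turned negative without scaling, at -0.35, -0.37 and -0.37, where the median of all probes was -0.51.

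**Figure D4:**
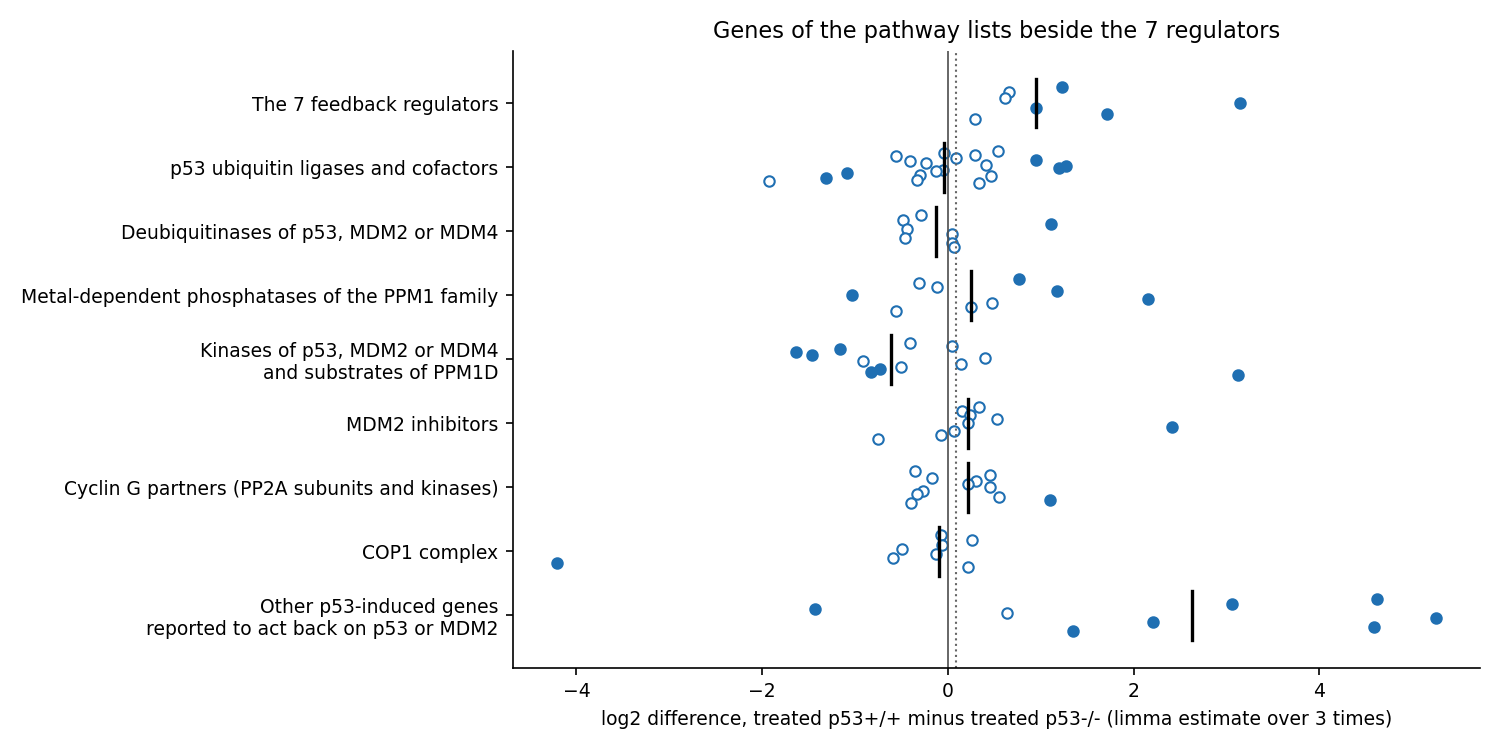
Log2 difference between treated p53+/+ and treated p53-/- cells (horizontal axis, limma estimate over 3 times) for the 7 genes and for each tested gene of 8 lists (rows), filled where called, with black bars at list medians and a dotted line at the median of all probes. The kinases lie mostly below 0 and the other p53-induced genes mostly above 2.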

How the data were processed

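RNA of 8 samples was hybridised in a single colour to Agilent arrays, 1 array for each of 2 genotypes and 4 times. The authors deposited scanner output holding an intensity per spot, the processed signal, already corrected for background by Agilent Feature Extraction. Its version was 10.7.3.1 in the submitters' processing notes, and the header names the human build hg19. The deposited matrix of the whole series held the same values (503808 of 503808 within rounding). After outlier spots were left out, each array was scaled to its 75th percentile on the log2 scale, spots of a probe were averaged, and 27227 of 42391 probes (64.2%) were named by RefSeq accession through GRCh38.p14. The reported probe was that with the highest mean.

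The 28947 probes that were well above background on 1 or more arrays entered limma fits (lmFit, eBayes) of genotype over the 6 treated arrays, and of genotype, treatment and their interaction over 8 arrays, with Benjamini-Hochberg adjusted p of 0.05. The number of arrays limits the precision. All members and their probes are named; of each list, up to 4 called genes with the largest difference, and for each member the 3 most similar genes. Other list genes and markers in the text were named after their values were seen. Members and lists were chosen with earlier results of these data known. The alternatives were quantile, median and no scaling, normexp background (offset 50), a signal floor, the mean over the probes of each gene, 2 other filters, time as a block, each treated time left out, rules of 1.5- and 3-fold, the p53-/- 0 h array as the baseline, and, chosen after seeing the data, no p53+/+ 48 h array. Values of the gene that p53-/- cells lack, and some genes that the naming rule covers, are not reported here. Software was limma 3.58.1 in R 4.3.3, and Python 3.11.15 with pandas 2.3.3, numpy 2.4.6, matplotlib 3.10.9 and scipy 1.17.1.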

Additional observations from a re-analysis of the deposited data

Results flagged for a closer look

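The response to doxorubicin differed between the genotypes for MDM2 by 3.49 and for MDM4 by 2.18 on the log2 scale, by the interaction term of limma over 8 arrays. Each untreated arm of that fit is 1 array, so its error comes from movement among the treated times. Both calls were lost with time as a block (adjusted p = 0.0597 and 0.0944, limma) and with any treated time left out, and that of MDM4 also with median scaling, without scaling, with the mean of its probes and without the p53+/+ 48 h array. The changes of CCNG1 and CCNG2 from their own 0 h arrays were above 0 at all 3 times in p53+/+ cells and below 0 at all 3 times in p53-/- cells. For CCNG2 in p53-/- cells at 48 h the change was -0.06 (technical SD 0.10), and 0.40 without scaling. The other CCNG2 probes gave 0.38 and -0.57. Measured from the p53-/- 0 h array, CCNG2 in p53+/+ cells was at 0.00 and -0.61 at 24 and 48 h. The mean change of each gene in p53+/+ cells exceeded that in p53-/- cells by 1.70 for CCNG1 and 2.51 for CCNG2, and these differences did not pass the interaction test. All 4 values rest on the array labelled p53+/+ 0 h.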

How the results depend on the processing

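The labels carry no replicate numbers, and the times shared by both genotypes were used as a block. The number of members called between treated genotypes was 4. It was 2 without scaling, 1 to 3 with a treated time left out, and 3 or 4 under the other alternatives. The number called for the interaction was 2. It was 1 with median scaling, without scaling, with the mean of all probes or without the p53+/+ 48 h array, and 0 with time as a block, where all probes called fell from 505 to 60. It was 0 with any treated time left out, where 0 to 42 probes were called in all. The 3 members that rose in p53+/+ cells became 5 under a 1.5-fold rule, 2 without scaling, with normexp background, under a 3-fold rule and from the p53-/- 0 h array, and lay between 3 and 4 with a time left out. The 1 member that fell in p53-/- cells became 0 without scaling, with the mean of all probes and under a 3-fold rule, and stayed at 1 with a time left out. The 2 members apart between treated genotypes became 1 without scaling, 4 under a 1.5-fold rule and 1 under a 3-fold rule, and lay between 2 and 3 with a time left out. The counts of members falling in p53+/+ cells and rising in p53-/- cells stayed at 0 under every alternative run.

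Fitted values that changed sign were CCNG2 between treated genotypes (-0.12 without the arrays of 12 h, and up to 1.26 with another time left out), RCHY1 between treated genotypes (-0.30 without scaling), and the interaction of COP1 (-0.014 without scaling). Of the changes from 0 h of at least 2-fold, those in p53+/+ cells of MDM4 at 24 h (-0.17) and CCNG2 at 48 h (-0.61) changed sign when measured from the p53-/- 0 h array. In all, 6 of 21 p53+/+ changes did so from that array, MDM4 at all 3 times among them, and 9 of 42 changes did so without scaling, none of them over 0.32 in size before. The cause was not tested. All probes called between treated genotypes numbered 5176, of which 58.3% were higher in p53+/+ cells. They numbered 9393 (14.5% higher) without scaling, 5115 (48.3%) with quantile normalization, 4927 (45.4%) with median scaling, 9635 (72.5%) with normexp background, 13505 (77.7%) with the signal floor, 12491 with no filter, and 291 to 2664 with a treated time left out. For the interaction, 505 probes (57.2% higher) became 1296 (14.0%) without scaling, 1277 (67.0%) with normexp background and 1141 with the signal floor.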
